A study of Capra hircus with 4 samples.

Results

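The AKT and PI3K genes described here are 7, namely AKT1, AKT2, PIK3CA, PIK3CB, PIK3CD, PIK3R1 and MTOR, found by their symbols among 20326 genes listed for each library. They were measured by RNA sequencing in secondary hair follicle stem cells of the cashmere goat (Capra hircus), taken from the small follicles whose fibre is cashmere. The cells were isolated from dorsal skin and cultured before RNA was taken. Mid anagen cells came from skin sampled in October and early anagen cells from skin sampled in April, with 1 female and 1 male library in each phase. The breed line, the age of the animals, the number of animals behind a library and the time in culture are not stated in the labels. Growth phase and season go together in this design and cannot be told apart.

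The 7 genes were chosen by role with their measured values at mid and early anagen in view. Their values in that comparison are therefore given as a description, with no test.

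PI3 kinases of class I are made of a catalytic subunit, such as the products of PIK3CA, PIK3CB and PIK3CD, bound to a regulatory subunit, such as that of PIK3R1. Growth factor receptors recruit the pair to the membrane, where it makes the lipid PIP3, and lipid phosphatases remove it. PIP3 brings the AKT kinases to the membrane to be phosphorylated by PDPK1 and by the mTOR complex that contains RICTOR. AKT restrains the TSC proteins, FOXO factors and GSK3 kinases, and the MTOR kinase, in the complex that contains RPTOR, promotes protein synthesis and growth. In hair follicles the pathway is known for its part in the activation of stem cells and in follicle growth.

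All values are the deposited abundances per gene, treated here as length-normalised. Levels of different genes are set beside each other on that assumption. The read depth behind them is unknown. Library totals ran from 844960 to 933211 in the mid libraries and from 1068429 to 1186966 in the early libraries. Genes of basal keratinocytes were present in every library, with 6 of 6 markers at 1 or more. Of 7 markers of the follicle bulge, where the stem cells reside, 5 were at 1 or more in every library. LGR5 was at 0.352 in the early male library, and CD34 was at 0.136 and 0.0136 in the female and male mid libraries and at 0 in both early libraries. All 7 bulge markers were higher in both mid libraries than in either early library. Over all genes tested, 31.5% were higher and 30.9% lower in both mid libraries. The bulge markers summed to 216 and 242 in the female and male mid libraries, against 122 and 95.4 in the female and male early libraries. Markers of fibroblasts and dermal papilla moved with phase, and their 10 values summed to 361 and 348 in the female and male mid libraries and to 21.4 and 81.1 in the female and male early libraries. All 10 were higher in both mid libraries than in either early library. Apart from VIM they were under 1 in both early libraries, and PDGFRA was under 1 in every library. VIM made up most of each sum. It was at 187 and 298 in the female and male mid libraries, against 20.6 and 78.5 in the early ones. The other fibroblast markers were each higher in the mid female than in the mid male library. COL1A1 was at 58.6 against 19.8 there, and DCN at 21.0 against 3.38. The basal keratinocyte markers summed to 19032 and 20134 in the female and male mid libraries, against 39049 and 43798 in the female and male early libraries. Of these 6 markers KRT14, KRT5 and ITGB4 were lower in both mid libraries, KRT14 and KRT5 making up most of the sum, and TP63, ITGA6 and COL17A1 overlapped. The part of these markers in the results was not tested. Endothelial markers summed to 7.56 and 6.05 in the female and male mid libraries, against 3.39 and 4.21 in the female and male early libraries. EGFL7 made up most of these sums. The other 5 endothelial markers were under 1 in every library, and of them PECAM1 was lower in both mid libraries. The sums of melanocyte markers overlapped, at 6.48 and 7.08 in the female and male mid libraries, against 5.76 and 7.04 in the early ones. Of these markers PMEL was lower in both mid libraries, at 2.40 and 2.08 against 2.41 and 2.54. KIT was higher in both but under 1 in every library. Smooth muscle and pericyte markers summed to 240 and 539 in the female and male mid libraries, against 197 and 462 in the female and male early libraries.

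AKT1 was by far the most abundant of the 7 genes, and as deposited MTOR differed most between the phases. With the trend on genomic span removed, the differences of AKT2 and PIK3CB, at -0.36 and -0.33 on the log2(value + 1) scale, were larger than that of MTOR at 0.25. AKT1 (GeneID 100860904) encodes the isoform tied to growth and survival. It was at 166 and 201 in the female and male mid libraries, against 173 and 208 in the female and male early libraries. The phases overlapped, and within each phase the male library was the higher. The mean was 184 ± 24.3 at mid anagen and 191 ± 24.4 at early anagen (SD, n = 2 each). The difference of means, mid minus early, was -0.06 on the log2(value + 1) scale, and 89.5% of the 12486 genes tested had a larger difference in either direction. It was 0.29 when each library was rescaled to a common total, under the median of all genes of 0.32. Without 1 library the AKT1 difference ran from -0.19 to 0.08, being above 0 without the early male or the mid female library.

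AKT2 (GeneID 102187521), the isoform best known for insulin-stimulated glucose uptake, was at 34.0 and 38.3 in the female and male mid libraries, against 41.4 and 45.3 in the female and male early libraries. The mid values lay below the early values without overlap. The log2 difference was -0.26 as deposited and became 0.08 when each library was rescaled to a common total. After that rescaling the median over all genes tested was 0.32, against 0.01 as deposited, and relative to this median AKT2 differed by -0.24. In bulk RNA, fewer cells of a type and less RNA per cell cannot be told apart.

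**Figure D1:**
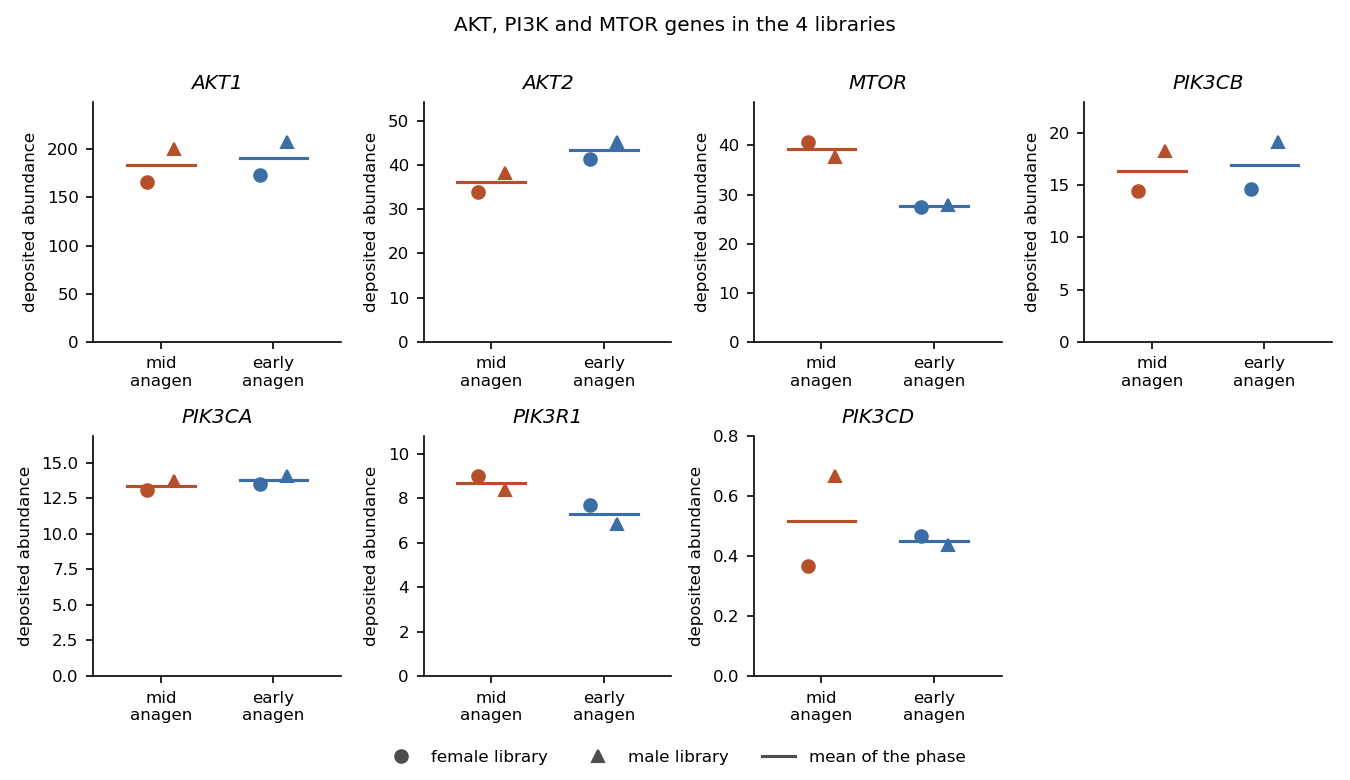
Deposited abundance (y axis, linear from 0, a separate scale per gene) of the 7 AKT, PI3K and MTOR genes in mid anagen (left, red) and early anagen (right, blue) libraries. Circles are female and triangles male libraries, and bars are means of 2 libraries. As deposited, MTOR and PIK3R1 lie higher and AKT2 lower in both mid libraries, while AKT1, PIK3CA, PIK3CB and PIK3CD overlap. Rescaled to a common total, the log2 difference of AKT2 is 0.08, which is -0.24 relative to the median of all genes.

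Shares of the AKT1 and AKT2 sum do not depend on how libraries are scaled. AKT1 made up 83.0% and 84.0% of it in the female and male mid libraries, against 80.7% and 82.1% in the female and male early libraries. The mean share was 83.5% ± 0.666 at mid anagen and 81.4% ± 0.986 at early anagen (SD, n = 2 each), and AKT2 made up the rest, 16.5% at mid and 18.6% at early anagen. The shares did not overlap between the phases, with a mean difference for AKT1, mid minus early, of 2.09 percentage points. Without 1 library the difference ran from 1.40 to 2.79 percentage points. Its sign could not change, because the shares did not overlap.

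The ratio of AKT1 to AKT2 was 4.90 and 5.25 in the female and male mid libraries and 4.19 and 4.59 in the female and male early libraries. The summed abundance of both genes was 200.4 and 239 in the female and male mid libraries and 215 and 253 in the female and male early libraries, so the sums overlapped. Like the levels they come from, the shares are given with no test.

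**Figure D2:**
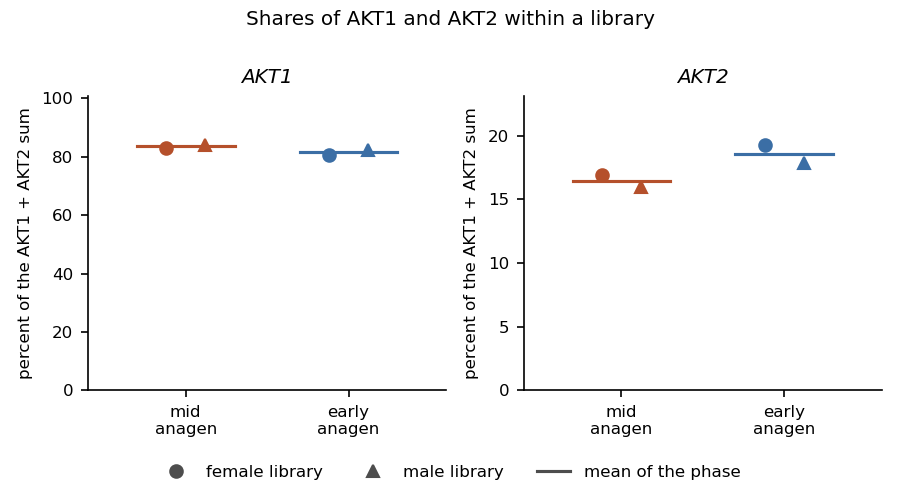
Percent of the summed AKT1 and AKT2 abundance (y axis, linear from 0, a separate scale per gene) in mid anagen (left, red) and early anagen (right, blue) libraries. Circles are female and triangles male libraries, and bars are means of 2. AKT1 took 83.0% and 84.0% of the sum in the mid libraries, against 80.7% and 82.1% in the early libraries.

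Among the catalytic subunits, PIK3CA and PIK3CB had close levels and differed little between the phases. PIK3CA (GeneID 102168391), the alpha subunit that acts downstream of receptor tyrosine kinases, was at 13.0 and 13.7 in the female and male mid libraries, against 13.5 and 14.1 in the female and male early libraries. PIK3CB (GeneID 102185042), the beta subunit, which G protein-coupled receptors can also engage, was at 14.4 and 18.2 at mid anagen, against 14.6 and 19.1 at early anagen. Both genes overlapped between the phases, and their log2 differences were -0.04 each. Rescaled to a common total both became 0.28, under the median of all genes of 0.32, and with the trend on genomic span removed they were -0.22 for PIK3CA and -0.33 for PIK3CB.

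PIK3CD (GeneID 102177551), the delta subunit best known from leukocytes, stayed below 1 in every library and was not tested. It was at 0.366 and 0.668 in the female and male mid libraries, against 0.467 and 0.437 in the female and male early libraries. It took 1.31% and 2.04% of the summed class I catalytic abundance at mid anagen, against 1.63% and 1.29% at early anagen. The mid libraries held both the lowest and the highest value. Of 9 leukocyte markers 6 were under 1 in every library, PTPRC and MS4A1 were at 0 in all 4, and the markers summed to 19.3 and 33.8 in the female and male mid libraries and to 11.9 and 20.5 in the female and male early libraries. PIK3CG, the gamma subunit of blood cells, lay between 0.0682 and 0.165.

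Of the regulatory subunits, PIK3R1 lay between PIK3R2 and PIK3R3 by level, well below PIK3R2. PIK3R1 (GeneID 102188710), which gives rise to the p85 alpha protein, was at 9.01 and 8.37 in the female and male mid libraries, against 7.69 and 6.85 in the female and male early libraries. The mid values lay above the early values, with a log2 difference of 0.23 as deposited, 0.53 after rescaling, which is 0.21 above the median of all genes, and 0.03 with the span trend removed. PIK3R2, which encodes p85 beta, was at 74.4 and 72.1 at mid anagen, against 63.5 and 46.5 at early anagen (log2 fold change 0.42, SE 0.19, limma adjusted p = 0.219). PIK3R2 thus made up 87.8% and 88.4% of the PIK3R1, PIK3R2 and PIK3R3 sum in the female and male mid libraries, against 88.7% and 86.9% in the female and male early libraries. PIK3R3, another regulatory subunit, was at 1.36 and 1.14 at mid anagen, against 0.427 and 0.166 at early anagen. Its early values were under the filter, which fixed its direction, and it was not called (limma adjusted p = 0.114). The sum of these regulatory genes was 3.03 and 2.50 times that of PIK3CA, PIK3CB, PIK3CD and PIK3CG in the female and male mid libraries and 2.50 and 1.59 times in the female and male early libraries.

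MTOR (GeneID 100860902), the kinase at the core of both mTOR complexes, was at 40.8 and 37.6 in the female and male mid libraries, against 27.4 and 28.0 in the female and male early libraries. The mid mean of 39.2 ± 2.23 was 1.42 times the early mean of 27.7 ± 0.402 (SD, n = 2 each). Both mid libraries were above both early libraries, with a log2 difference of 0.56 in the female and 0.42 in the male pair. The difference of 0.49 as deposited was 0.82 after rescaling to a common total, which is 0.50 above the median of all genes. It was 0.25 with the span trend removed. As deposited, 29.4% of the genes tested had a larger difference in either direction.

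Of the partners of MTOR, RPTOR and RICTOR overlapped between the phases and MLST8 had lower values at mid anagen, none of them past the test. RPTOR, the substrate-binding subunit of mTORC1, was at 14.3 and 17.5 in the female and male mid libraries, against 15.9 and 16.1 in the female and male early libraries (log2 fold change -0.02, SE 0.16, limma adjusted p = 0.953). RICTOR, the defining subunit of mTORC2, was at 9.01 and 10.2 at mid anagen, against 9.98 and 8.52 at early anagen (limma adjusted p = 0.858). MLST8, a subunit of both complexes, was at 21.9 and 22.6 at mid anagen, against 30.9 and 34.9 at early anagen (limma adjusted p = 0.0986). MAPKAP1, the mTORC2 subunit also called SIN1, was at 32.7 and 29.4 at mid anagen, against 25.2 and 29.6 at early anagen. MLST8 and MAPKAP1 were added after their values were seen, and they do not complete the complexes. Of the other subunits, AKT1S1 was at 38.2 and 35.3 at mid anagen, against 36.9 and 35.8 at early anagen. PRR5 was at 34.3 and 45.1, against 41.8 and 51.8, and both genes overlapped between the phases. PRR5L was at 1.02 and 1.87, against 0.189 and 0.609, and the filter fixed its direction. The ratio of MTOR to RPTOR was 2.86 and 2.15 in the female and male mid libraries and 1.72 and 1.74 in the female and male early libraries, and that of MTOR to RICTOR was 4.53 and 3.68 at mid anagen and 2.74 and 3.28 at early anagen.

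RHEB, the small GTPase that switches on mTORC1, was at 320 and 164 in the female and male mid libraries, against 411 and 449 in the female and male early libraries. Its mid values were the lower without overlap, with a wide gap between the mid libraries (log2 fold change -0.91, SE 0.34, limma adjusted p = 0.162). Without the mid female library it was called lower (-1.38, limma adjusted p = 0.0308) and without the mid male library the log2 fold change was -0.43 (limma adjusted p = 0.353), and over the alternatives its adjusted p ran from 0.0308 to 0.537. TSC1 was at 12.4 and 12.1 in the female and male mid libraries, against 10.2 and 8.20 in the female and male early libraries (limma adjusted p = 0.200). TSC2, which together with TSC1 restrains RHEB, was at 27.2 and 32.5 at mid anagen, against 25.5 and 24.4 at early anagen (limma adjusted p = 0.345).

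**Figure D3:**
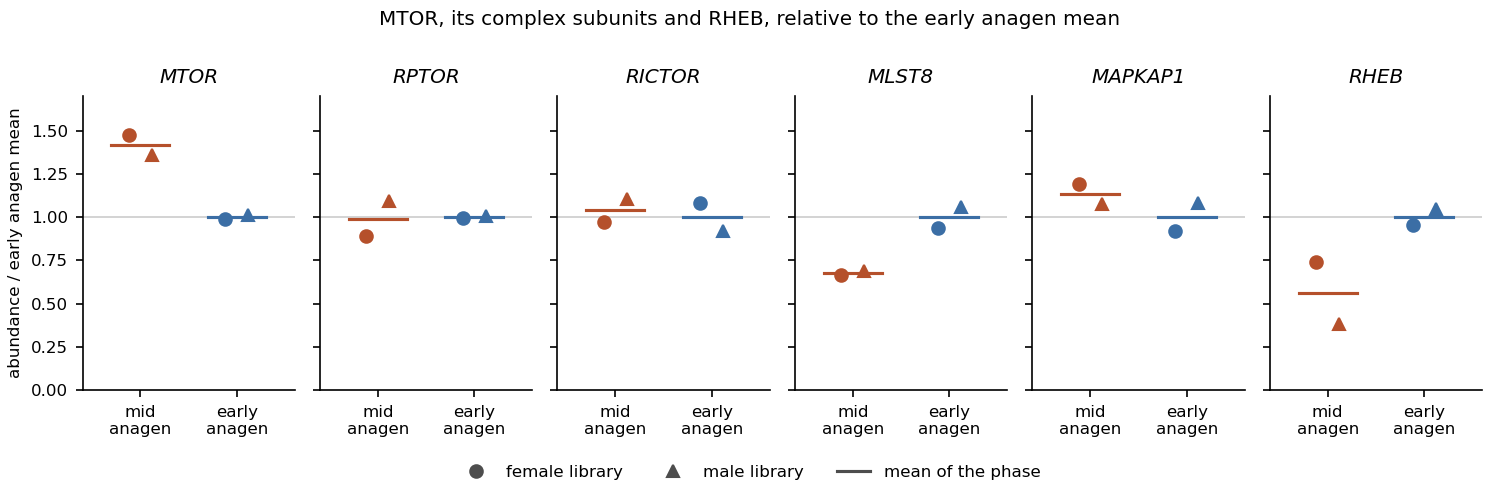
Abundance of MTOR, RPTOR, RICTOR, MLST8, MAPKAP1 and RHEB, each divided by the early anagen mean of the same gene (y axis, linear from 0). Mid anagen libraries are on the left in red and early anagen libraries on the right in blue. Circles are female and triangles male libraries, bars are means of 2, and the grey line marks the early mean. MTOR lies above the early mean in both mid libraries and MLST8 and RHEB below it, while RPTOR and RICTOR lie on either side of it.

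By level the 7 genes kept nearly the same order in every library. AKT1 was highest, PIK3CB was in place 4, PIK3CA in place 5, PIK3R1 in place 6 and PIK3CD in place 7 in all 4 libraries. AKT2 and MTOR shared the places between, with AKT2 above MTOR in 3 libraries and below it in the mid female library. AKT2 and MTOR overlapped at mid anagen, with means of 36.1 ± 3.04 and 39.2 ± 2.23, while at early anagen AKT2 was above MTOR in both libraries, with means of 43.3 ± 2.73 and 27.7 ± 0.402 (SD, n = 2 each). PIK3CB averaged 16.6 ± 2.43 and PIK3CA 13.6 ± 0.429, and the lowest PIK3CB value was just above the highest PIK3CA value. PIK3R1 averaged 7.98 ± 0.926 and PIK3CD 0.484 ± 0.129. Of the genes tested, 5.51% had a higher mean level than AKT1 and 72.7% a higher one than PIK3R1.

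Of the 7 genes 6 passed the filter of 1 or more in at least 2 libraries, PIK3CD being the exception. MTOR and PIK3R1 were higher in both mid libraries, AKT2 was lower in both as deposited, and the other 4 overlapped. After rescaling the AKT2 difference was 0.08, which is -0.24 relative to the median of all genes. Over all genes tested 31.5% were higher in both mid libraries and 30.9% were lower in both.

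The male and female libraries give a comparison that did not choose the genes. PIK3CB was higher in the male library of each phase, at 18.2 in the mid male against 14.4 in the mid female and at 19.1 in the early male against 14.6 in the early female library. In a fit with phase and sex, the male minus female log2 difference of PIK3CB was 0.34 (SE 0.14, limma adjusted p = 0.464). That of AKT1 was 0.26 (SE 0.19, limma adjusted p = 0.686), with 201 in the mid male against 166 in the mid female and 208 in the early male against 173 in the early female library. None of the 6 genes tested was called by limma, against 0.144% of all genes. An unadjusted p under 0.05 was seen in 0 of 6, against 1376 of all 12486 genes tested. The other 4 genes had a limma adjusted p between 0.786 and 0.951. With so few libraries and terms for both phase and sex, the fit could miss real differences.

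Genes with the most like pattern over the 4 libraries were sought among 9434 genes, or 9435 for PIK3CD, by the distance between centred log2 profiles. For AKT1 these were MCM3AP, SKIV2L and SLC15A4, at distances of 0.01 to 0.02, with MCM3AP at 23.9 and 29.4 in the female and male mid libraries and 25.1 and 30.3 in the female and male early libraries. For AKT2 they were GRB2, MLYCD and DLST, at distances of 0.02 to 0.03. GRB2, an adaptor between receptors and signalling proteins that was also on the pathway lists, was at 60.4 and 67.6 in the female and male mid libraries and 72.1 and 78.7 in the female and male early libraries. The nearest gene was ATL3 for PIK3CA, HACL1 for PIK3CB, TAOK2 for PIK3CD, FRYL for PIK3R1 and KIAA1109 for MTOR. With 4 libraries such closeness is a description only.

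Beyond these genes, 108 other genes of the pathway were examined by role, of which 105 were in the tables and 97 were tested. Of these limma called 0, while 32 had an unadjusted p under 0.05. Over all 12486 genes 0.304% were called, 28 higher and 10 lower, and 3482 had an unadjusted p under 0.05. The unadjusted counts of each list below are to be read beside this high background. Without the mid female library 6 of the pathway genes were called, against 5.87% of all genes, and without the mid male library 3 were, against 2.96% of all genes. The median log2 fold change of the 97 was 0.10, against 0.01 for all genes tested. Of the 97, 4 had both early values under the filter, which fixed their direction, namely PIK3R3, GAB2, INPP5D and PRR5L. All 4 had an unadjusted p under 0.05 in the limma fit and are included in the counts of their lists below.

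The receptors and adaptors had a median log2 fold change of 0.50, with 0 of 11 called by limma. Of the 11, 7 had an unadjusted p under 0.05, as did 3482 of all 12486 genes tested. The median of the list was 0.30 with the span trend removed and 0.26 with a pseudocount of 5. IGF1R, the receptor for insulin-like growth factors, was at 52.8 and 44.5 in the female and male mid libraries, against 37.0 and 29.1 in the female and male early libraries (limma adjusted p = 0.138). INSR, the insulin receptor, was at 7.25 and 9.41 at mid anagen, against 5.74 and 4.88 at early anagen (limma adjusted p = 0.139). Both receptors were higher in each mid library than in either early library without being called, and with the span trend removed the log2 fold change of IGF1R was 0.19, against 0.55 as deposited. IRS1, the adaptor that links them to PI3 kinase, was at 4.15 and 4.72 at mid anagen, against 2.44 and 3.31 at early anagen, and IRS2, its relative, was at 7.52 and 7.88, against 7.46 and 7.60.

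The other PI3 kinase genes, which here include the inhibitor PIK3IP1 and the adaptor PIK3AP1, had a median of 0.37, with 0 of 8 called by limma and 2 at an unadjusted p under 0.05. The median was 0.22 without the early male library and 0.23 with a pseudocount of 5. PIK3IP1 was at 25.6 and 21.8 in the female and male mid libraries, against 21.8 and 7.99 in the female and male early libraries. The early libraries stood far apart from each other, and the phases overlapped.

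The phosphatases had a median of 0.30, with 0 of 10 called by limma and 3 at an unadjusted p under 0.05. The median was 0.04 with the span trend removed and 0.18 without the mid male library. INPP4B, a phosphatase of these lipids, was at 4.79 and 4.20 in the female and male mid libraries, against 3.16 and 2.64 in the female and male early libraries. INPPL1, the lipid phosphatase SHIP2, was at 23.3 and 26.0, against 20.2 and 18.0, and PHLPP1, a protein phosphatase that acts on AKT, at 9.51 and 12.3, against 9.17 and 7.88. All 3 were higher in both mid libraries and none was called (limma adjusted p between 0.156 and 0.313). With the span trend removed the log2 fold change was 0.02 for INPP4B, against 0.50 as deposited, and -0.01 for PHLPP1, against 0.31 as deposited.

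The list of AKT activators, inhibitors and SGK kinases had a median of 0.21, with 0 of 5 called by limma and 0 at an unadjusted p under 0.05. PDPK1, the kinase that activates AKT, was at 21.0 and 23.7 in the female and male mid libraries, against 23.0 and 22.2 in the female and male early libraries. SGK1, a kinase related to AKT, was at 32.5 and 73.0 at mid anagen, against 35.7 and 48.1 at early anagen. Both genes overlapped between the phases.

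The mTOR complex and TSC list had a median of -0.02 (0 of 13 called by limma, 4 at an unadjusted p under 0.05), and the amino acid sensing list a median of -0.09 (0 of 19 called by limma, 6 at an unadjusted p under 0.05). Rescaled to a common total these medians became 0.30 and 0.22, both under the median of all genes. DEPTOR, an inhibitor of both mTOR complexes, was at 0.197 and 0.244 in the female and male mid libraries, against 0.107 and 0.131 in the female and male early libraries, below the filter.

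Downstream, the AKT substrates had a median of 0.16 (0 of 10 called by limma, 2 at an unadjusted p under 0.05), which was -0.08 without the mid male library. FOXO1 was at 14.0 and 23.9 in the female and male mid libraries, against 14.5 and 15.7 in the female and male early libraries. FOXO3 was at 46.0 and 74.4 at mid anagen, against 45.2 and 51.7 at early anagen, and GSK3B at 58.8 and 74.2, against 62.6 and 64.9. For each of these 3 genes the mid male library was the highest of the 4.

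The mTORC1 substrates and outputs had a median of -0.14 (0 of 10 called by limma, 4 at an unadjusted p under 0.05). EIF4EBP1, the translation repressor that mTORC1 inactivates, was at 2235 and 577 in the female and male mid libraries, against 1860 and 973 in the female and male early libraries. Each female library was above each male library, and the phases overlapped. RPS6KB1, the S6 kinase, was at 24.9 and 29.2 at mid anagen, against 27.4 and 31.0 at early anagen. Rescaled to a common total the median of the list became 0.20, under the median of all genes of 0.32.

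Genes known as FOXO targets had a list median of 0.55, with 0 of 11 called by limma and 4 at an unadjusted p under 0.05. Without the mid male library the median was 0.32. With the replicate block, which here is sex, 4 of 11 were called, against 14.3% of all genes. In this list 7 genes were higher in both mid libraries than in either early library, 1 was lower and 3 overlapped, against 31.5% of all genes tested higher and 30.9% lower in both mid libraries. By the same count, 7 of 11 receptors and adaptors were higher and 1 lower. For the other PI3 kinase genes it was 6 of 8 and 0, and for the phosphatases 6 of 10 and 1. The mTOR complex and TSC list had 3 of 13 higher and 5 lower. The higher counts of these 4 lists each include 1 gene whose direction the filter fixed, namely GAB2, PIK3R3, INPP5D and PRR5L in turn. The amino acid sensing list had 4 of 19 and 8, and the mTORC1 list 3 of 10 and 5. The AKT substrates had 3 of 10 and 2, and the AKT activator list 2 of 5 and 0. SESN3, a stress-responsive inhibitor of mTORC1 signalling that the naming rule did not take and that is named for its size, was at 38.7 and 33.4 in the female and male mid libraries, against 13.0 and 4.19 in the female and male early libraries (log2 fold change 2.12, SE 0.46, limma adjusted p = 0.0808, and 0.0142 with the replicate block).

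**Figure D4:**
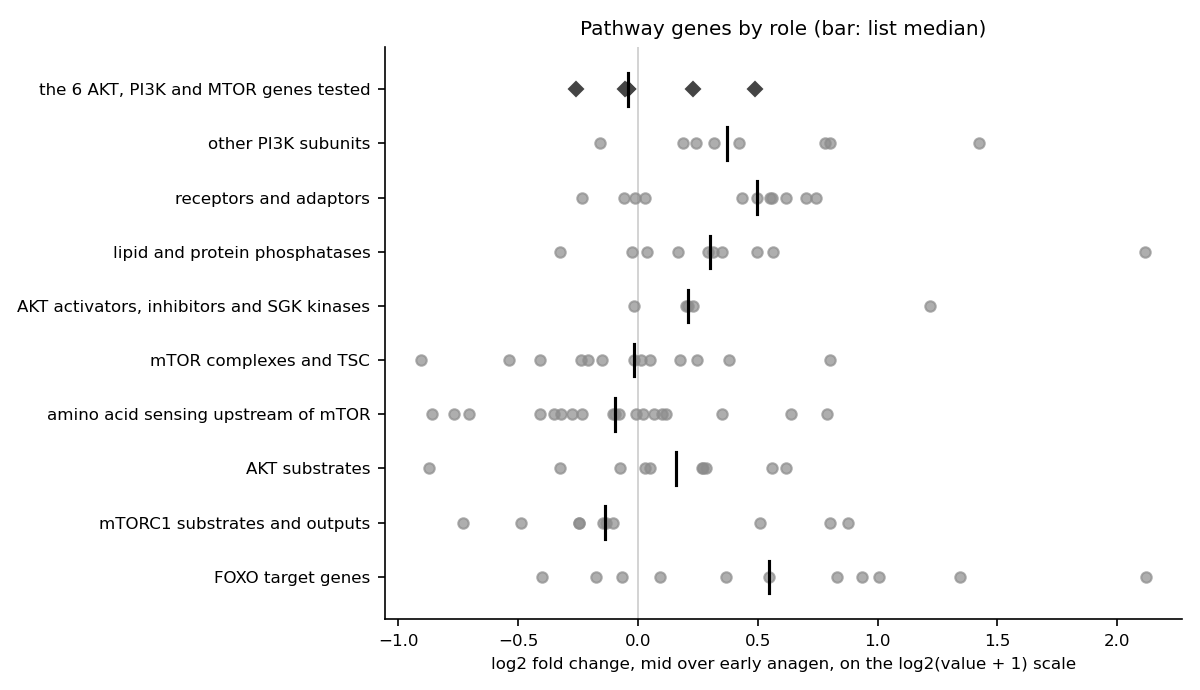
Log2 fold change of mid over early anagen on the log2(value + 1) scale (x axis) for the 6 AKT, PI3K and MTOR genes tested (diamonds, untested differences) and for the pathway lists (points). Vertical bars are list medians, and none of the points was called. List medians run from -0.14 for the mTORC1 substrates and outputs to 0.55 for the FOXO targets.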

How the data were processed

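The deposited values are a signal, treated here as a length-normalised abundance for each gene in each library, and not as counts. The submitters' processing notes name kallisto 0.46.1 and sleuth 0.30.0. The build, the annotation and how transcript values became gene values are not stated in the labels or files. The 4 tables were joined by GeneID, of which 20294 of 20326 were found in a RefSeq gene table of the ARS1.2 goat assembly, used only for genomic spans. Read depth is unknown, so no counting interval is given.

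A pseudocount of 1 was added before taking log2, and limma 3.58.1 was run in R 4.3.3 with an intensity trend. Fold changes on this scale understate changes of genes with low values. Genes at 1 or more in at least 2 libraries, 12486 in all, were tested. Mid was compared with early anagen with phase as the only term, and male with female with phase and sex as terms. The Benjamini-Hochberg adjustment ran over all genes tested, with a threshold of 0.05. The genes, lists and tests were chosen with earlier results of these data known. Named pathway genes were 24 fixed by role plus any called, and 2 more pathway genes are not reported here. AKT shares were taken of the AKT1 and AKT2 sum. Genes most like each of the 7 in pattern had a mean of at least 5. The fit was tested on simulated data with large changes in well expressed genes only. That test does not bear on differences as small as those of the 7 genes. Alternatives were a pseudocount of 0.1 or 5, a filter of 5 or none, rescaling, removal of the span trend, leaving out each library, a replicate block and no intensity trend.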

Additional observations from a re-analysis of the deposited data

Results flagged for a closer look

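For 10 of the genes described, apart from AKT1S1, the female pair and the male pair moved in opposite directions from early to mid anagen. Each pair is 1 mid and 1 early library, so none of these differences was tested. On the log2(value + 1) scale, mid minus early, PIK3CD was at -0.10 in the female and 0.22 in the male pair. PIK3CG was at 0.113 in the female and -0.0245 in the male pair, and both genes were below 1 in every library. Among these genes EIF4EBP1 had the widest gap, with 0.26 in the female and -0.75 in the male pair. SGK1 was at -0.13 in the female and 0.59 in the male pair, and FOXO1 at -0.0474 in the female and 0.58 in the male pair. The others of the genes described were MAPKAP1 (0.36 in the female and -0.00827 in the male pair), GSK3B (-0.0898 in the female and 0.19 in the male pair), PDPK1 (-0.12 in the female and 0.0894 in the male pair), RICTOR (-0.13 in the female and 0.24 in the male pair) and RPTOR (-0.15 in the female and 0.12 in the male pair). AKT1S1 was at 0.047 in the female and -0.0201 in the male pair. Opposite signs were seen in 23 of the 97 pathway genes tested (23.7%) and in 23.5% of all genes tested. Of the 7 AKT, PI3K and MTOR genes PIK3CD was the only one with opposite signs.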

How the results depend on the processing

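Of 12486 genes, 38 were called between the phases, against 18 with a pseudocount of 0.1, 0 with no filter (3843 at an unadjusted p under 0.05), 648 rescaled to a common total and 1782 with a replicate block. Of the calls 73.7% were higher at mid anagen as deposited and 87.2% after rescaling. Without 1 library the count ran from 0 to 733, with 0 without the early female (2897 at an unadjusted p under 0.05) or the early male library (1445), 733 without the mid female and 370 without the mid male library. Among pathway genes 0 were called (32 at an unadjusted p under 0.05), against 6 after rescaling, 13 with the replicate block and 0 to 6 without 1 library. Such a fit takes the spread from the phase that still has 2 libraries.

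Replicate numbers coincide with sex, and the labels do not pair animals. Deviations of same-numbered libraries from their phase means correlated at 0.292 over genes. With the replicate block 14.3% of all genes and 13 of the 97 pathway genes were called, 12 higher and 1 lower.

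The median difference of the 7 genes was -0.04, against 0.28 after rescaling and -0.0877 to 0.117 without 1 library. The pathway median of 0.0994 became 0.425 after rescaling. Over all genes tested the median moved from 0.01 to 0.32 with the same rescaling. The count called between the sexes was 18, against 46 and 48 with pseudocounts of 0.1 and 5, 0 with no filter (1504 at an unadjusted p under 0.05), 101 with a filter of 5, 396 after rescaling, 10 with the span trend removed and 1 with sex as the only term.

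Of the named pathway genes 11 changed direction under at least 1 alternative, none of them called. After rescaling the log2 fold changes were 0.31 for PDPK1, 0.30 for RPTOR, 0.10 for EIF4EBP1 and 0.23 for RPS6KB1. All of these lay under the rescaled median of all genes tested, 0.32. With the span trend removed they were -0.0126 for IRS2, -0.00811 for PHLPP1, -0.18 for RICTOR and -0.26 for GSK3B. Without 1 library they ran from -0.101 to 0.0658 for PDPK1, -1.22 to 0.732 for EIF4EBP1, -0.0513 to 0.155 for RICTOR, -0.158 to 0.121 for RPTOR, -0.216 to 0.00585 for RPS6KB1, -0.00181 to 0.0584 for IRS2, -0.0985 to 0.631 for FOXO1, -0.0703 to 0.612 for FOXO3, -0.115 to 0.215 for GSK3B and -0.343 to 0.801 for SGK1. The cause was not tested.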
